A study of Macaca mulatta with 10 samples.

Results

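Adipocyte identity is set by a small network of transcription factors, and 10 of these were followed here across adipose tissue and skeletal muscle of rhesus monkeys. They were chosen by name, namely *PPARG*, *CEBPA*, *CEBPB*, *CEBPD*, *PPARA*, *PPARD*, *RXRA*, *EBF1*, *KLF15* and *NR1H3*, and 9 of the 10 were found by symbol among the 28595 genes of the files. *CEBPB* is not analysed here, because the gene ID that its symbol has in the name table has no row in the files. RNA-Seq was available from 5 male rhesus monkeys, 1 library of adipose tissue (labelled fat) and 1 of skeletal muscle per animal, 10 libraries in all. Monkey rhesus_950807 was hyperinsulinemic and insulin resistant and carried a heterozygous nonsense mutation of *PRKD2*, the gene of protein kinase D2. Monkeys rhesus_920401, rhesus_940129, rhesus_940313 and rhesus_950509 were controls. The labels give no ages, and the other hyperinsulinemic monkey of the study is not analysed here. The hyperinsulinemic group is therefore 1 animal, and its mutation, its insulin level and its other individual traits cannot be told apart. Poly(A) RNA was made into strand-specific libraries, and the authors gave read counts and RPKM, a level in which a read count is divided by the gene's length and the library's depth.

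In textbook accounts, CEBPB and CEBPD are the first of these factors to be induced when a precursor cell is committed to become an adipocyte, and they switch on *PPARG* and *CEBPA*. PPARG, which binds DNA as a heterodimer with RXRA, and CEBPA then maintain each other's expression and drive the genes of lipid storage, adipokines and insulin-responsive glucose uptake. EBF1 and KLF15 act upstream of or alongside *PPARG*, PPARA and PPARD are its paralogs and are best known for fatty acid oxidation, and NR1H3 (LXR alpha) is a sterol sensor that also pairs with RXRA.

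The tissue labels were checked against marker genes. All 8 measured adipocyte markers were higher and all 9 skeletal muscle markers lower in adipose tissue than in muscle of the controls (edgeR quasi-likelihood test, adjusted p under 0.05). The libraries held 30669915 to 43268985 mapped reads. The adipose libraries of rhesus_920401 and rhesus_940313 stood apart by muscle RNA, with *ACTA1*, the skeletal muscle actin, at 101 and 80.9 RPKM, which was 0.343% and 0.270% of its level in the muscle of the same animals. It was 1.72 RPKM in the adipose tissue of rhesus_950807 and 1.18 and 0.444 RPKM in that of rhesus_940129 and rhesus_950509. *PRKD2* itself had 0.387 RPKM in muscle of rhesus_950807, below the 1.14 to 1.79 RPKM of the control muscles, and 3.66 RPKM in its adipose tissue, within the 3.27 to 6.12 RPKM of the control adipose tissues. In bulk tissue, fewer cells of a type and less RNA per cell cannot be told apart.

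*PPARG*, the master regulator of adipogenesis (ENSMMUG00000007191, chromosome 2, 48645233 to 48713996, minus strand), was the most abundant of the 9 genes in adipose tissue. Its level there was 62.7 RPKM in the hyperinsulinemic monkey, against 69.6, 123, 93.8 and 113 RPKM in the controls rhesus_920401, rhesus_940129, rhesus_940313 and rhesus_950509. In muscle it was 0.650 RPKM (28 reads) in the hyperinsulinemic monkey, against 0.9996, 1.33, 0.929 and 2.06 RPKM (49 to 95 reads) in the same 4 controls. The hyperinsulinemic monkey had the lowest value in each tissue, and the adipose values lay far above all muscle values. The build of these coordinates is not given in the sources used here, and the coordinates of all members are those of the files.

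*CEBPA*, the C/EBP factor that acts with PPARG in the terminal phase (ENSMMUG00000006124, chromosome 19, 39821818 to 39824614, minus strand), was next in adipose tissue. It had 58.4 RPKM in adipose tissue of the hyperinsulinemic monkey, against 80.7, 107, 62.5 and 72.3 RPKM in the controls in the same order. Its muscle level was 1.30 RPKM in the hyperinsulinemic monkey, against 3.37, 1.57, 1.45 and 3.42 RPKM. Again the hyperinsulinemic monkey was below every control in both tissues, although its distance to the lowest control was small, 58.4 against 62.5 RPKM in adipose tissue and 1.30 against 1.45 RPKM in muscle.

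*CEBPD*, a factor of the early phase that also responds to hormones and inflammation (ENSMMUG00000013151, chromosome 8, 50246791 to 50247455, minus strand), varied most of the 9 between the control adipose libraries. Its adipose level was 36.7 RPKM in the hyperinsulinemic monkey, against 60.4, 30.7, 16.3 and 12.7 RPKM in the controls. Its muscle level was 1.07 RPKM (20 reads) in the hyperinsulinemic monkey, against 2.02, 2.29, 3.15 and 2.99 RPKM (43 to 75 reads). Thus the hyperinsulinemic monkey was second highest of the 5 animals in adipose tissue and lowest in muscle. The standard deviation of the control adipose libraries was 72.4% of their mean, more than that of 95.8% of the 11981 genes tested there. In control muscle it was 20.8%, and 6 of the other 8 members had a higher value there. The control with the most *CEBPD*, rhesus_920401, was also the one with the most RNA of immediate early genes, which are induced within minutes of stress or handling. The summed RPKM of the 4 measured genes (*FOSB*, *JUNB*, *ATF3* and *NR4A1*) in adipose tissue was 30.6 in the hyperinsulinemic monkey, 148 in rhesus_920401 and 12.0 to 17.2 in the other 3 controls, and their part in the *CEBPD* level was not tested.

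*EBF1*, a helix-loop-helix factor of adipocyte and B cell development (ENSMMUG00000021696, chromosome 6, 155115309 to 155257318, minus strand), had 22.6 RPKM in adipose tissue of the hyperinsulinemic monkey, against 30.9, 29.7, 26.1 and 45.5 RPKM in the controls. Muscle held 0.326 RPKM (14 reads) in the hyperinsulinemic monkey, against 1.52, 0.466, 0.329 and 1.33 RPKM (18 to 74 reads). The adipose value of the hyperinsulinemic monkey was below all 4 controls, while its muscle value was just under that of rhesus_940313 and rests on few reads.

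*NR1H3* (ENSMMUG00000015598, chromosome 14, 24850042 to 24869866, minus strand) had 23.4 RPKM in adipose tissue of the hyperinsulinemic monkey, against 28.4, 33.7, 20.5 and 18.9 RPKM in the controls. Its muscle value was 0.241 RPKM (14 reads) in the hyperinsulinemic monkey, against 0.922, 1.21, 0.324 and 0.995 RPKM (24 to 74 reads). The hyperinsulinemic monkey was in the middle of the controls in adipose tissue and below all of them in muscle. Macrophages are another known source of *NR1H3*, and the 7 measured macrophage markers summed to 719 RPKM in adipose tissue of the hyperinsulinemic monkey and 182 to 550 RPKM in that of the controls, and to 12.4 RPKM in muscle of the hyperinsulinemic monkey and 14.3 to 45.0 RPKM in control muscle. The part of macrophages in the *NR1H3* level was not tested.

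*RXRA*, a heterodimer partner of the PPAR and LXR receptors (ENSMMUG00000008183, chromosome 15, 3854584 to 3897856, minus strand), was the one member with a lower RPKM in adipose tissue than in muscle in every animal. It had 20.5 RPKM in adipose tissue of the hyperinsulinemic monkey, against 18.2, 22.4, 15.98 and 13.8 RPKM in the controls, and 38.5 RPKM in muscle of the hyperinsulinemic monkey, against 46.7, 39.0, 34.7 and 30.7 RPKM. Every muscle value exceeded every adipose value, and the hyperinsulinemic monkey lay within the controls in both tissues.

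*PPARD*, the broadly expressed PPAR (ENSMMUG00000015904, chromosome 4, 35064287 to 35150351, plus strand), had 9.28 RPKM in adipose tissue of the hyperinsulinemic monkey, against 12.8, 20.6, 7.20 and 7.65 RPKM in the controls. The muscle value was 2.71 RPKM in the hyperinsulinemic monkey, against 2.60, 3.91, 4.55 and 3.45 RPKM. Both values of the hyperinsulinemic monkey lay within the controls. The annotation has 2 genes on the other strand that overlap *PPARD*, and whether the counting used strand is not stated, so that reads of these genes cannot be told apart from those of *PPARD*.

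*KLF15*, a zinc finger factor that is induced by glucocorticoids and raises *SLC2A4* in adipocytes (ENSMMUG00000003721, chromosome 2, 46119887 to 46130210, minus strand), had 6.08 RPKM in adipose tissue of the hyperinsulinemic monkey, against 7.55, 16.7, 8.77 and 12.5 RPKM in the controls. In muscle it had 1.75 RPKM in the hyperinsulinemic monkey, against 5.33, 3.61, 4.95 and 3.07 RPKM. The hyperinsulinemic monkey was the lowest of the 5 animals in both tissues.

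*PPARA*, the PPAR of fatty acid oxidation in liver and muscle (ENSMMUG00000016258, chromosome 10, 90208629 to 90247300, plus strand), was the least abundant of the 9 in adipose tissue. It had 1.97 RPKM in adipose tissue of the hyperinsulinemic monkey, against 1.65, 2.77, 3.84 and 3.91 RPKM in the controls. In muscle it had 1.07 RPKM in the hyperinsulinemic monkey, against 2.31, 2.09, 2.02 and 1.88 RPKM. The 4 control muscles were close to each other, with a standard deviation of 8.66% of their mean, and the hyperinsulinemic monkey lay well below them.

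**Figure D1:**
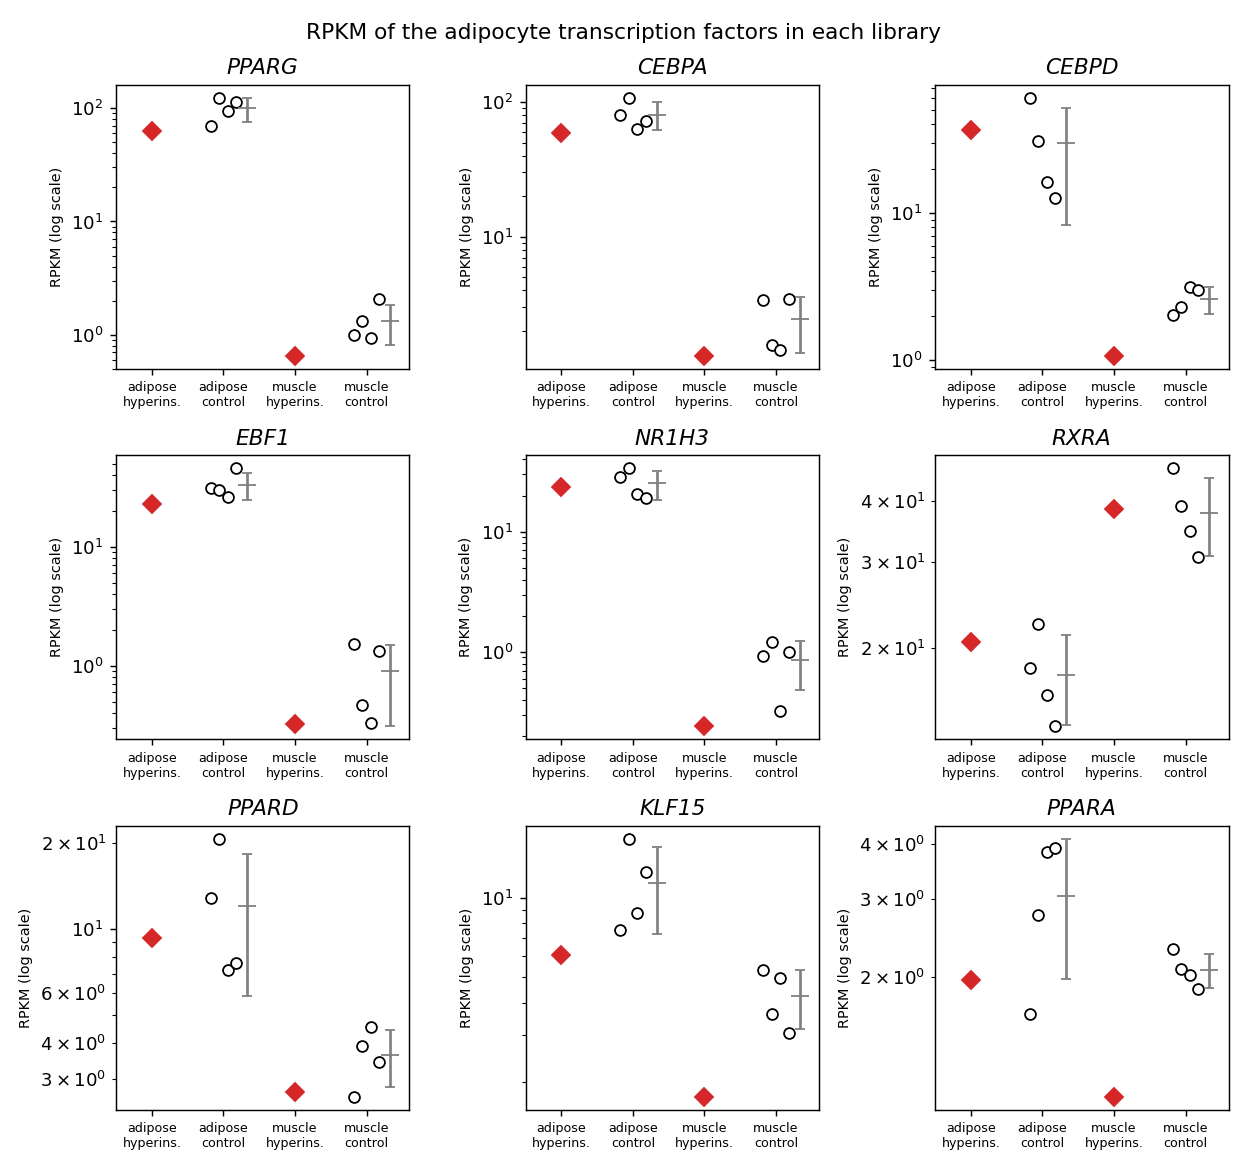
RPKM (log scale) of the 9 measured adipocyte transcription factors, 1 panel per gene, in adipose tissue and muscle of the hyperinsulinemic monkey rhesus_950807 (red diamonds) and of the 4 control monkeys (open circles, with their mean and SD as a grey cross and bar). *PPARG*, *CEBPA*, *EBF1* and *NR1H3* in adipose tissue lay far above muscle, *RXRA* lay lower in adipose tissue, and the diamond was below all circles for 4 genes in adipose tissue (7.8% of all genes tested) and 7 in muscle (15.2% of all genes tested), 2 of which, *EBF1* and *NR1H3*, were under the filter there.

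Ordered by level in control adipose tissue, *PPARG* (99.9 ± 23.6 RPKM, SD, n = 4) and *CEBPA* (80.8 ± 19.3) came first, with overlapping ranges. *EBF1* (33.04 ± 8.58), *CEBPD* (30.0 ± 21.7), *NR1H3* (25.4 ± 6.90), *RXRA* (17.6 ± 3.68), *PPARD* (12.1 ± 6.24) and *KLF15* (11.4 ± 4.13) followed, each overlapping the next. *PPARA* was last (3.04 ± 1.06). The ranges of neighbours in this order were apart only between *CEBPA* and *EBF1* and between *KLF15* and *PPARA*. In control muscle *RXRA* (37.8 ± 6.87 RPKM, SD, n = 4) was apart from all others. *KLF15* (4.24 ± 1.07), *PPARD* (3.63 ± 0.819), *CEBPD* (2.61 ± 0.543), *CEBPA* (2.45 ± 1.09) and *PPARA* (2.07 ± 0.180) came next, and *PPARG* (1.33 ± 0.517), *EBF1* (0.910 ± 0.599) and *NR1H3* (0.863 ± 0.380) were last, with every neighbouring pair overlapping. RPKM is a level per length, and the annotated transcripts range from 551 bases (*CEBPD*) to 5759 bases (*RXRA*), so an incomplete gene model would move a gene in this order.

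The comparison of adipose tissue with muscle in the 4 controls asked which of these factors separate the tissues. Of the 9 genes, 5 were higher in adipose tissue: *PPARG* by 29.2-fold (95% interval 17.3 to 49.1), *EBF1* by 13.8-fold (6.61 to 28.9), *CEBPA* by 12.5-fold (7.29 to 21.4), *NR1H3* by 11.3-fold (6.32 to 20.2) and *CEBPD* by 4.26-fold (2.14 to 8.48). *RXRA* was 5.60-fold lower in adipose tissue. *KLF15*, *PPARD* and *PPARA* were not called.

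The quasi-likelihood test of edgeR was run with TMM scaling on 4 adipose and 4 muscle libraries, adjusted over 11173 genes, with a call at an adjusted p under 0.05 and an absolute log2 difference of at least 1. All 9 genes passed the filter at a mean of 1 RPKM, *EBF1* and *NR1H3* through adipose tissue, since their control muscle means were under 1 RPKM. On the log2 scale the differences were 4.87 for *PPARG* (SE 0.34, adjusted p 5.07e-07), 3.64 for *CEBPA* (SE 0.36, adjusted p 6.02e-06) and −2.49 for *RXRA* (SE 0.25, adjusted p 6.76e-06). *EBF1*, *NR1H3* and *CEBPD* differed by 3.79, 3.50 and 2.09, with adjusted p of 4.76e-05, 1.42e-05 and 0.00189. In all, 5 of the 9 were called higher in adipose tissue, against 29.6% of all genes tested, and 1 of the 9 lower, against 22% of all genes tested. Without the adipose libraries of rhesus_920401 and rhesus_940313 these 6 were called again, with *RXRA* at −2.47. The difference of *CEBPD* was 1.65 without these 2 libraries and 1.49 without rhesus_920401, the control with the most *CEBPD* in adipose tissue.

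*PPARD* (log2 difference 0.34, SE 0.32, adjusted p 0.367), *KLF15* (0.05, SE 0.31, adjusted p 0.902) and *PPARA* (−0.80, SE 0.32, adjusted p 0.0486) depend on the scaling. The 10 most abundant genes took 5.97% to 8.09% of gene counts in control adipose tissue and 30.3% to 32.9% in control muscle. Scaled to the mapped totals, as RPKM is, the median of all genes was 1.61 in place of 0.23, and 89.8% in place of 57.4% of the genes called were higher in adipose tissue. On that scale *PPARD* (1.73, adjusted p 0.000746) and *KLF15* (1.42, adjusted p 0.00115) were called higher, and *PPARA* turned positive (0.55, adjusted p 0.119). The members called higher were then 7 of 9, against 63% of all genes tested, and 1 of 9 was lower, against 7.15%. *RXRA* kept its call and direction (−1.10, adjusted p 0.00125). Set against the median of all genes under TMM, *PPARG* stood 4.63 above it, *CEBPA* 3.41, *EBF1* 3.56, *NR1H3* 3.26, *CEBPD* 1.86 and *PPARD* 0.11, while *KLF15* stood at −0.18, *PPARA* at −1.03 and *RXRA* at −2.72.

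**Figure D2:**
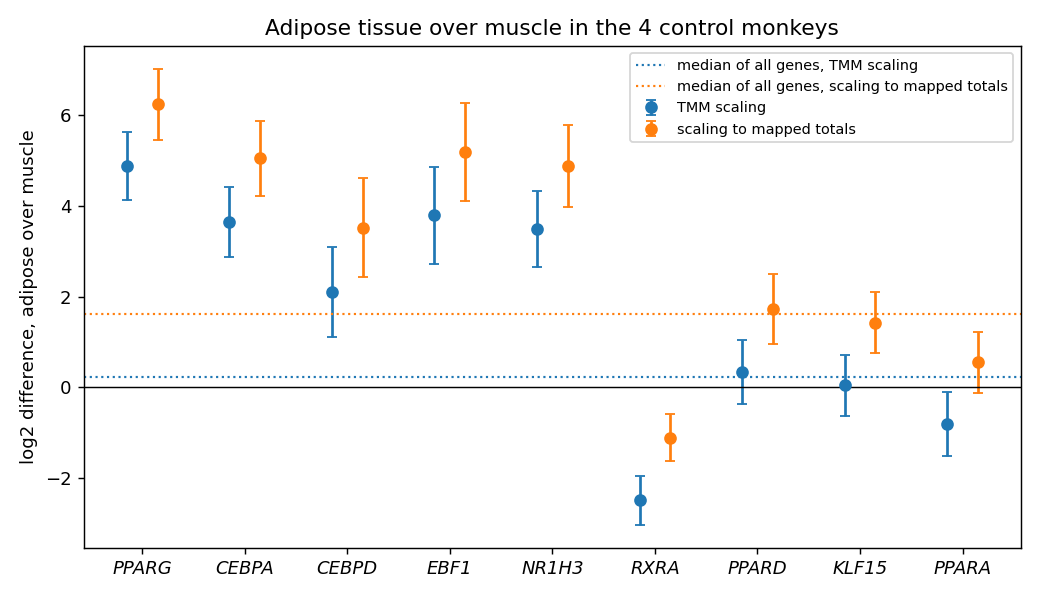
Adipose over muscle difference (log2, with 95% interval) of the 9 genes in the 4 control monkeys under TMM scaling and under scaling to the mapped totals, with the median of all genes under each scaling as a line. Both sets of points shift with the median: *PPARG*, *CEBPA*, *EBF1*, *NR1H3* and *CEBPD* were above and *RXRA* below zero under both, *PPARD* and *KLF15* were called under mapped totals and not under TMM, and *PPARA* changed sign.

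Within single animals and on the RPKM scale, the adipose over muscle ratio of RPKM had the same direction in all 5 monkeys for 8 of the 9 genes. It ranged from 54.8 to 101 for *PPARG*, from 21.1 to 68.5 for *CEBPA*, from 20.3 to 79.1 for *EBF1*, from 19.0 to 97.4 for *NR1H3* and from 4.23 to 34.4 for *CEBPD*. For *RXRA* it was 0.390 to 0.574, below 1 in every animal. *PPARA* was higher in adipose tissue in 4 of 5 animals (ratio 0.717 to 2.08), with rhesus_920401 the exception. In TMM-scaled CPM (counts scaled to library size) *PPARA* was instead lower in adipose tissue in every animal, for example 17.0 against 21.7 in rhesus_940313. On that scale *KLF15* was lower in adipose tissue of rhesus_920401 (18.2 against 38.2) and rhesus_940313 (25.0 against 34.2). *PPARD* was lower in that of rhesus_940313 (30.9 against 47.2) and rhesus_950509 (31.2 against 36.7).

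The leading paralog differed between the tissues for the PPAR and RXR genes, whereas in the LXR pair *NR1H2* led in both. *PPARG* made up 84.8% of the summed RPKM of the 3 PPAR genes in adipose tissue of the hyperinsulinemic monkey and 82.8% to 90.7% in control adipose tissue, but 14.6% in muscle of the hyperinsulinemic monkey and 12.4% to 27.9% in control muscle. There *PPARD* held the largest share, 61.2% in the hyperinsulinemic monkey and 44.0% to 60.7% in the controls, and *PPARA* 24.2% and 25.4% to 39.1%. These shares do not depend on the scaling of the libraries. They do rest on the annotated lengths, 1269 bases for *PPARG*, 3560 for *PPARD* and 3678 for *PPARA*. The reads of *PPARD* may include those of the 2 genes that overlap it. *RXRA* held 42.7% of the RXR genes in adipose tissue of the hyperinsulinemic monkey and 39.2% to 55.7% in that of the controls. In muscle *RXRG*, the isotype of skeletal muscle, led with 65.7% in the hyperinsulinemic monkey and 50.6% to 66.1% in the controls. Its paralog in the LXR pair, the broadly expressed *NR1H2*, was measured beside *NR1H3*, which held 36.8% of the pair in adipose tissue of the hyperinsulinemic monkey and 39.2% to 45.8% in control adipose tissue, against 0.393% in muscle of the hyperinsulinemic monkey and 0.491% to 2.76% in control muscle.

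**Figure D3:**
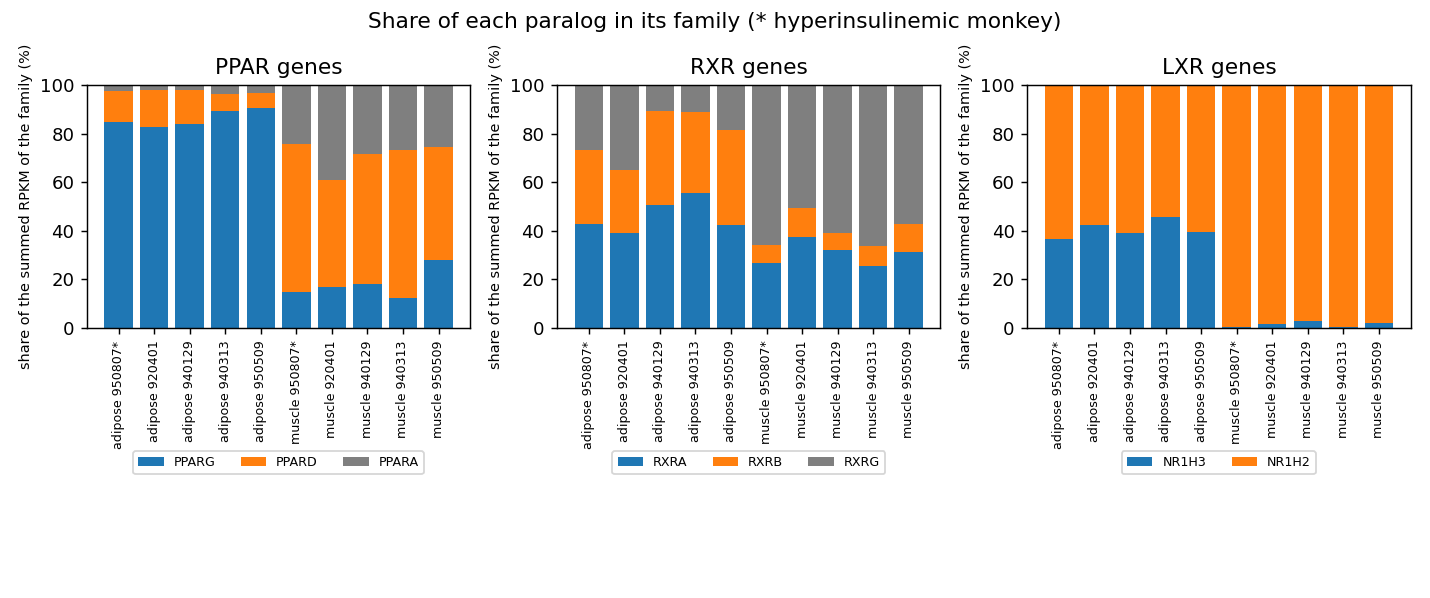
Share (%) of each paralog in the summed RPKM of the PPAR, RXR and LXR genes, 1 bar per library, with adipose tissue on the left of each panel, muscle on the right and the hyperinsulinemic monkey rhesus_950807 starred. *PPARG* took 82.8% to 90.7% of the PPAR bars of control adipose tissue and 12.4% to 27.9% of those of control muscle, and *NR1H3* was nearly absent from the LXR bars of muscle.

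Genes known as targets of these factors were taken from lists. Over all genes, 29.6% were called higher and 22% lower in adipose tissue under TMM, and 63% higher and 7.15% lower under mapped totals. Of 11 tested targets of PPARG and CEBPA, 10 were higher in adipose tissue and 1 lower (median 5.39 on the log2 scale, against 0.23 over all genes). Among these targets, *PLIN1*, *ADIPOQ*, *CIDEC*, *AQP7*, *LIPE* and *LEP* are also adipocyte markers used to check the tissue labels. The count for the targets thus partly repeats that check. *LPL*, the lipase that takes up lipoprotein fat, differed by 6.05, *ADIPOQ*, the adipokine adiponectin, by 5.86, *LEP*, the adipokine leptin, by 5.72 and *ACSL1*, which activates fatty acids, by 3.24. The lower one was *SLC2A4*, the insulin-responsive glucose transporter, at −2.17. Under mapped totals it was at −0.80 with an adjusted p of 0.0406 (edgeR), and only the log2 threshold of 1 kept it from a call. Of 8 tested targets of NR1H3 and its paralog, 7 were higher and 0 lower (median 2.98), among them the sterol exporter *ABCG1* at 3.32 and *APOE* at 4.07. Of 12 tested fatty acid oxidation targets of PPARA and PPARD, 3 were higher and 3 lower (median 0.01). *ANGPTL4*, a lipase inhibitor, was at 4.83, whereas the mitochondrial genes *CPT1B*, *ACADVL* and *SLC25A20* were at −2.28, −1.65 and −1.44. The lower calls of this list were lost under mapped totals, where 6 were higher and 0 lower. On that scale *CPT1B* was at −0.90 (adjusted p 0.00505 by edgeR), short of the log2 threshold of 1. The shares of this list were thus near those of all genes under TMM, and its share of higher genes was below that of all genes under mapped totals.

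Of the other 16 tested factors of adipocyte differentiation, 9 were higher and 5 lower in adipose tissue, against 29.6% and 22% of all genes. *NFIA* (2.28) and *TLE3* (2.10) were higher under both scalings. *RXRG* (−4.65) was lower under both. *ZNF423* (−2.20) was at −0.82 under mapped totals (adjusted p 0.00757 by edgeR) and was not called there for want of the log2 threshold. On that scale 11 of the list were higher and 1 lower, near the 63% of all genes called higher. Of 7 tested factors known to restrain adipocyte differentiation, 5 were also higher, against 29.6% of all genes, among them *ID2* (3.02), *WWTR1* (3.19), *KLF3* (2.17) and *TCF7L2* (1.51). Under mapped totals it was 7 of 7, against 63% of all genes.

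The next comparison set the hyperinsulinemic monkey against the 4 controls, tissue by tissue. In adipose tissue no member was called and none reached an unadjusted p under 0.05. The log2 difference was negative for 7 of 9 members, against 55.8% of all genes tested. The lowest relative levels were those of *KLF15*, at 53.4% of the control mean RPKM, *PPARG* at 62.8%, *PPARA* at 64.8%, *EBF1* at 68.5% and *CEBPA* at 72.3%, and *NR1H3* was at 92.4%. *RXRA* stood at 117% and *CEBPD* at 122%.

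On the log2 scale, relative to the controls, the adipose differences were −1.11 for *KLF15* (SE 0.57, 95% interval −2.39 to 0.16), −0.88 for *PPARG* (SE 0.50, −1.98 to 0.22), −0.74 for *EBF1* (SE 0.46, −1.76 to 0.29) and −0.67 for *CEBPA* (SE 0.47, −1.71 to 0.38). They were −0.84 for *PPARA*, −0.58 for *PPARD*, −0.31 for *NR1H3*, 0.13 for *CEBPD* and 0.02 for *RXRA*, and the adjusted p was 0.9999 for all 9 (edgeR). Of the 11981 genes tested 0 were called (0%), 286 had an unadjusted p under 0.05, and DESeq2 called 11, with 0 members among them. With 1 animal against 4, the smallest p of an exact permutation test is 0.2, and the two-sided value was 0.4 for each of *PPARG*, *CEBPA*, *EBF1* and *KLF15*. *PPARG*, *CEBPA*, *EBF1* and *KLF15*, 4 of 9, were below all 4 controls in RPKM, against 7.8% of the genes tested. In TMM-scaled CPM (counts scaled to library size) the count was again 4 of 9, against 14.3%. The members share the one library, so their low values are not separate observations. Without the adipose libraries of rhesus_920401 and rhesus_940313, the log2 differences were −1.48 for *KLF15*, −1.12 for *PPARG*, −0.93 for *EBF1* and −0.84 for *CEBPA*, with 0 members called.

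In muscle, all 7 members that passed the filter had negative differences under TMM, against 52.4% of all genes tested, and none was called. Under mapped totals 6 of the 7 were negative. *KLF15* was at 41.4% of the control mean RPKM, *CEBPD* at 40.9%, *PPARG* at 48.9%, *PPARA* at 51.7%, *CEBPA* at 53.1% and *PPARD* at 74.7%, and *RXRA* was at 102%. *EBF1* and *NR1H3*, at 35.9% and 27.9% of the control mean, were below the filter with means under 1 RPKM.

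The muscle difference was −1.44 for *KLF15* (SE 0.43, 95% interval −2.41 to −0.46, unadjusted p 0.00841, adjusted p 0.482 by edgeR) and −1.12 for *PPARA* (SE 0.39, −2.01 to −0.24, unadjusted p 0.0182, adjusted p 0.496 by edgeR). Neither passed the adjustment over 8306 genes, and over the alternatives the adjusted p ranged from 0.0866 to 0.757 for *KLF15* and from 0.164 to 0.793 for *PPARA*. The others were −1.46 for *CEBPD*, −1.22 for *PPARG*, −1.10 for *CEBPA*, −0.59 for *PPARD* and −0.14 for *RXRA*, of which *RXRA* was at 0.028 under mapped totals. Of the 8306 genes 0 were called (0%), 754 had an unadjusted p under 0.05, and DESeq2 called 88, with 0 members among them. In RPKM 7 of the 9 genes were below all 4 controls, all but *RXRA* and *PPARD*. This was so for 5 of the 7 tested, against 15.2% of all genes tested. In TMM-scaled CPM (counts scaled to library size) it was so for 8 of 9 and for 6 of the 7 tested, against 23.8%. The exact permutation p was 0.2, the smallest possible, for *CEBPD*, *PPARA*, *KLF15* and *NR1H3*. The median of the 7 was −1.12, and that of all genes −0.03.

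Several marker genes were also low in the same muscle library, with 0 called. *TNNT1* and *MYH7*, the troponin T and myosin heavy chain of slow muscle fibers, showed the largest differences among the skeletal muscle markers. *TNNT1* had 14.3 RPKM in the hyperinsulinemic monkey, against 90.01, 651, 69.7 and 129.7 RPKM in the controls, and *MYH7* had 12.9 RPKM, against 80.1, 531, 45.5 and 72.0 RPKM. Both were below all controls, while the 9 skeletal muscle markers together summed to 85837 RPKM in the hyperinsulinemic monkey and 64900 to 87036 RPKM in the controls. The 8 smooth muscle and pericyte markers summed to 65.0 RPKM in the hyperinsulinemic monkey and to 108 to 156 RPKM in the controls. The sum of the macrophage markers was also below all controls (12.4 against 14.3 to 45.0 RPKM), while *CD163*, *CSF1R*, *CD14* and *MSR1* each lay within the controls. The 8 adipocyte markers summed to 71.5 RPKM in the hyperinsulinemic monkey, within the 45.0 to 108 RPKM of the control muscles, with 0 of them at 0. Singly, 5 of the 8 had negative log2 differences. *PLIN1*, *LIPE*, *CIDEC*, *PLIN4* and *ADIPOQ* were at 51.1%, 55.9%, 63.8%, 78.1% and 95.4% of the control mean RPKM. *AQP7*, *LEP* and *THRSP* were at 120%, 143% and 151%. The part of these cells and of fiber type in the low values of the members was not tested. In adipose tissue the adipocyte markers summed to 5800 RPKM in the hyperinsulinemic monkey, within the 4159 to 8185 RPKM of the controls. The single markers went both ways. *LIPE*, *ADIPOQ*, *THRSP*, *PLIN1* and *CIDEC* were at 65.0%, 65.0%, 67.0%, 89.1% and 94.9% of the control mean RPKM. *AQP7*, *LEP* and *PLIN4* were at 118%, 143% and 165%. Summed markers of fibroblasts, endothelial cells and macrophages were above all controls there, where 3345 of the 11981 genes tested were also above all controls. The sums were 2962 RPKM for the 8 fibroblast markers against 1499 to 2741 RPKM and 207 RPKM for the 6 endothelial markers against 127 to 183 RPKM. The 7 macrophage markers summed to 719 RPKM against 182 to 550 RPKM. Other sums lay within the controls. They were 834 RPKM for smooth muscle and pericyte markers against 700 to 1616 RPKM and 171 RPKM for mesothelial markers against 64.7 to 204 RPKM. For erythroid markers the sum was 6281 RPKM against 1228 to 6850 RPKM. Gene by gene the log2 difference was negative for 5 of the 8 adipocyte and 4 of the 8 fibroblast markers. It was negative for 4 of the 6 endothelial and 0 of the 7 macrophage markers, against 55.8% of all genes tested. The part of these cells in the low adipose values of *PPARG*, *CEBPA*, *EBF1* and *KLF15* was not tested. The ratio of *PPARG* to *ADIPOQ* was 8.64% in the hyperinsulinemic monkey and 7.64% to 14.9% in the controls.

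**Figure D4:**
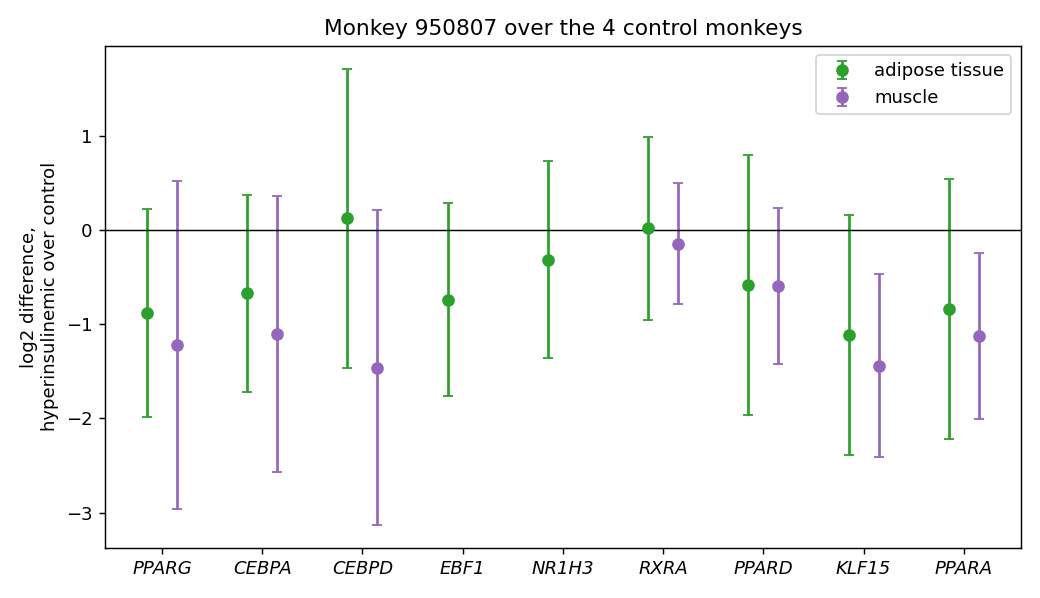
Difference of the hyperinsulinemic monkey rhesus_950807 from the 4 control monkeys (log2, edgeR with TMM scaling, with 95% intervals) for the members tested in adipose tissue (9 genes) and in muscle (7 genes). The interval excluded 0 for *KLF15* (−2.41 to −0.46) and *PPARA* (−2.01 to −0.24) in muscle, without adjustment over the genes, and crossed 0 for all members in adipose tissue.

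The difference between the tissues in this effect was tested by an interaction term over all 10 libraries. It was 1.65 for *CEBPD* (SE 1.0, 95% interval −0.52 to 3.81, adjusted p 0.951 by edgeR), which was within the controls in adipose tissue and below them in muscle. It was 0.50 for *CEBPA*, 0.40 for *KLF15*, 0.39 for *PPARG*, 0.34 for *PPARA*, 0.23 for *RXRA* and 0.09 for *PPARD*. No member had an unadjusted p under 0.05, so that a difference of effect between adipose tissue and muscle was not detectable with 1 hyperinsulinemic animal. Of 7938 genes 0 were called (0%), 425 had an unadjusted p under 0.05, and DESeq2 called 16, with 0 members among them.

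The targets were followed in the same comparison, and 0 were called in either tissue. Of the 11 tested PPARG and CEBPA targets 9 were negative in adipose tissue (median −0.41, against −0.06 over all genes, of which 55.8% were negative). *SLC2A4* had 34.5 RPKM in adipose tissue of the hyperinsulinemic monkey, against 50.9, 139, 61.4 and 68.3 RPKM in the controls (log2 difference −1.43, SE 0.66). In muscle it had 82.3 RPKM in the hyperinsulinemic monkey, against 148, 147, 148 and 112 RPKM (−0.93, SE 0.28, unadjusted p 0.00776, adjusted p 0.482 by edgeR), so that this glucose transporter was below all controls in both tissues. Of the 8 tested NR1H3 targets 7 were negative in adipose tissue under TMM and 5 under mapped totals. *ABCG1* had 9.12 RPKM in adipose tissue of the hyperinsulinemic monkey, against 31.6, 21.2, 20.2 and 18.9 RPKM in the controls (−1.52, SE 0.47, unadjusted p 0.0095, adjusted p 0.9999 by edgeR). *FASN*, the fatty acid synthase, had 68.7 RPKM in the hyperinsulinemic monkey, against 57.9, 2142, 691 and 801 RPKM, so that this monkey and rhesus_920401 were both far below the other 3 animals. *PLTP*, the phospholipid transfer protein, lay the other way and was named after its values were seen. It had 179 RPKM in the hyperinsulinemic monkey, against 151, 123, 61.2 and 69.9 RPKM (log2 difference 0.64, SE 0.51). It was above all controls, as were 3345 of the 11981 genes tested in adipose tissue.

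The other lists had 0 genes called between the hyperinsulinemic monkey and the controls. In adipose tissue the PPARA and PPARD targets had 10 of 12 genes negative (median −0.22) and 9 under mapped totals. The other adipogenic factors had 13 of 16 negative (median −0.20) and 8 under mapped totals. The factors that restrain adipogenesis had 2 of 7 negative (median 0.11) and 2 under mapped totals. The coactivators and corepressors of PPAR and RXR had 6 of 11 negative (median −0.04). Under mapped totals these cofactors had 3 of 11 negative, and their median was 0.15. *MLXIPL*, the carbohydrate response factor ChREBP, had 6.91 RPKM in adipose tissue of the hyperinsulinemic monkey, against 7.61, 23.1, 13.8 and 15.97 RPKM in the controls. In muscle *SREBF1*, a lipogenic factor, had 3.02 RPKM in the hyperinsulinemic monkey, against 3.57, 5.37, 16.1 and 8.30 RPKM (log2 difference −1.63, SE 0.71). In muscle the medians were 0.02 for the PPARA and PPARD targets, −0.66 for the PPARG and CEBPA targets, −0.89 for the NR1H3 targets, −0.03 for the other factors, −0.43 for those that restrain adipogenesis and 0.06 for the cofactors.

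The genes whose levels followed *PPARG* and *CEBPA* most closely over the 10 libraries were taken as a description. For *PPARG* they were *FFAR4*, a receptor for long-chain fatty acids (Pearson r 0.998), *NID2*, a basement membrane protein (0.997), and *CSAD*, an enzyme of taurine synthesis (0.997). For *CEBPA* they were *MMP28*, a matrix protease (0.997), *APOE* (0.997) and *PGD*, an enzyme of the pentose phosphate pathway (0.996). The points are 5 adipose and 5 muscle libraries, and 1550 of 8511 genes had an r above 0.95 with *PPARG* and 1512 with *CEBPA*, so that these values mostly restate the contrast between the tissues.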

How the data were processed

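Adipose tissue and skeletal muscle of 5 monkeys were sequenced as poly(A) RNA. The submitters' processing notes name TopHat 1.2.0, the paper names another release, and reads that mapped uniquely were kept. The tool that counted them, the genome build and the annotation release were not given in the sources used here. The authors deposited read counts per gene and RPKM values, made from the counts by transcript length and mapped reads. Symbols were found for 54.4% of the 28595 genes in an Ensembl name table. *FABP4*, *GATA2* and *MARCO* were left out of the lists after the data were seen, because the chromosome of their row differs from that in a RefSeq table (assembly T2T-MMU8v2.0).

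Counts were tested with edgeR 4.0.16 in R 4.3.3 (quasi-likelihood, TMM, two-sided, Benjamini-Hochberg over all genes whose RPKM averaged 1 or more in the libraries compared, for the interaction in each tissue). The standard error is the log2 difference divided by the root of F, and intervals are 95% and cover the spread between animals. The lone hyperinsulinemic animal was taken to have the controls' spread. Both tissues come from the same animals, and the deviations of an animal's libraries from the control means correlated by 0.136, −0.213, 0.0923 and 0.146 in rhesus_920401, rhesus_940129, rhesus_940313 and rhesus_950509 over 7881 genes. The animal as a block was an alternative and changed no call of a member. Other alternatives were DESeq2 1.42.0, limma 3.58.1 on log2(RPKM + 1) or log2(RPKM + 0.1), median-of-ratios scaling, mapped totals, no filter, a filter at 5 RPKM, all libraries in one fit and leaving out each control or the adipose libraries of rhesus_920401 and rhesus_940313. Scripts were tested on simulated data.

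Named genes are all members, up to 4 genes with the smallest p of each list described, known partners of a member, the 3 genes most like *PPARG* and *CEBPA*, and *PRKD2*. *SLC2A4* in the tissue comparison and the *ACTA1* check were added after their values were seen. Members and lists were chosen with earlier results of these data known. Library totals were 30669915 to 43268985 mapped reads, and a member with 14 to 28 reads is imprecise from counting alone. 1 library stands for each animal and tissue. The tissue comparison of the coactivators and corepressors is not reported here.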

Additional observations from a re-analysis of the deposited data

How the results depend on the processing

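Of 420 values of the members under alternatives, 392 kept their direction and side of the threshold, 6 passed the threshold that they had missed, 22 changed sign and 0 lost a call. In the tissue comparison the 6 calls held under every alternative that was run. Sign changes concerned differences near 0 or *PPARA*. For adipose over muscle, *PPARA* was 0.55 under mapped totals, 0.35 in limma and 0.46 with a pseudocount of 0.1, and the adipose minus muscle difference of its mean log2 level was −0.91 in TMM-scaled CPM, where that of RPKM is positive. *KLF15* was −0.036 with median-of-ratios scaling and −0.036 in DESeq2, and ranged from −0.35 (without rhesus_940129) to 0.38 over the controls left out, *PPARD* from −0.092 (without rhesus_940129) to 0.63. *PPARD* and *KLF15* were called under mapped totals (1.73 and 1.42), in limma (1.40 and 1.21) and with a pseudocount of 0.1 (1.60 and 1.37).

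In adipose tissue, hyperinsulinemic over control, leaving out each control gave −0.12 to 0.64 for *CEBPD* and −0.075 to 0.18 for *RXRA*. *RXRA* was −0.036 without the 2 adipose libraries of rhesus_920401 and rhesus_940313 that carried muscle RNA, and −0.020 with all 10 libraries fitted. In muscle *RXRA* was 0.028 under mapped totals, 0.044 in limma and 0.046 with a pseudocount of 0.1. For the difference between tissues *PPARG* was −0.16 in limma and *PPARD* −0.14 without those 2 adipose libraries, and −0.19 (without rhesus_940313) to 0.43 over the controls left out. With the animal as a replicate block, the tissue comparison called 6 members and 5712 genes, and *RXRA* in muscle was 0.044.

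Gene counts moved more. Tissue calls were 5767, and 3325 at the filter of 5 RPKM. Hyperinsulinemic calls in adipose tissue were 0, and 11 in DESeq2, 7 without rhesus_920401, 32 without those 2 adipose libraries and 4 with the block in limma. In muscle they were 0, and 88 in DESeq2, 14 without rhesus_940313, 10 with no filter, 3 under mapped totals, and 1 with median-of-ratios scaling or in limma with either pseudocount. For the difference between tissues they were 0, and 16 in DESeq2. No member was among any of these. At the filter of 5 RPKM *RXRA* was the one member tested in muscle. With 1 hyperinsulinemic animal, no exact permutation p of a single gene could go below 0.2.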

Other observations

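Glucocorticoid-induced genes were followed because they share an inducer with *KLF15* and *CEBPD*. The 4 measured genes (*PER1*, *FKBP5*, *SGK1* and *ZBTB16*) had 0 calls between rhesus_950807 and the controls. All 4 had positive log2 differences in adipose tissue (median 0.37), where *KLF15* was at −1.11 and *CEBPD* at 0.13, and 2 of 4 in muscle (median −0.10). The part of glucocorticoids in the levels of *KLF15* and *CEBPD* was not tested. *FKBP5*, a cochaperone of the glucocorticoid receptor, had 10.8 RPKM in adipose tissue of rhesus_950807, against 8.04, 5.72, 6.88 and 8.02 RPKM in the controls, and *PER1*, a clock gene, had 10.5 RPKM, against 6.66, 8.69, 3.86 and 7.02 RPKM. Both were above all 4 controls there, as were 3345 of the 11981 genes tested in adipose tissue. Between the tissues of the controls 3 of the 4 were called lower in adipose tissue under TMM and 0 under mapped totals. On the latter scale *ZBTB16* was at −0.92 (adjusted p 0.0293 by edgeR), short of the log2 threshold of 1.

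Other cells of adipose tissue were measured by their markers. Adipose over muscle in the controls, 7 of 7 macrophage, 7 of 8 fibroblast, 3 of 6 endothelial, 2 of 8 smooth muscle and pericyte, 5 of 5 mesothelial and 1 of 2 T and NK cell markers were called higher, and 0 of 2 erythroid markers were called, against 29.6% of all genes called higher. Under mapped totals the fibroblast count was 8 of 8, the endothelial 6 of 6, the smooth muscle and pericyte 7 of 8 and the T and NK cell 2 of 2, against 63% of all genes. The mesothelial genes *MSLN*, *KRT19*, *WT1* and *CALB2* had summed levels with *KRT18* of 171 RPKM in adipose tissue of rhesus_950807 and 64.7 to 204 RPKM in control adipose tissue. The T and NK cell markers summed to 25.9 RPKM in rhesus_950807 and 5.83 to 15.6 RPKM in the controls, the highest value of the 5 adipose libraries, and all 4 tested had positive differences, with 0 called.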
